A study of Mus musculus with 12 samples.

Results

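The brain-enriched microRNAs (miRNAs) miR-124 (mmu-miR-124 in the files) and miR-9 (mmu-miR-9) were followed through miRNA-Seq libraries of mouse frontal cortex (FCx) and hippocampus (HP). They are the rows of the count files with exactly these names, without their star forms, and make up 2 of the 469 miRNAs listed. The animals were male C57BL/6J mice of 8 weeks, with no treatment and no genotype other than the strain. FCx was cortical tissue from a slice between Bregma -1.5 and -3.5 and HP was the entire hippocampus. Tissue of 3 mice was pooled for each region before RNA extraction, and 3 libraries were prepared from the small RNAs of each pool. The 5′ adaptor of each library ended in its own index of 6 nt, placed next to the ligated RNA. The index was UUAGGC for index 3, CAGAUC for index 7 and GGCUAC for index 11. Each library was sequenced once by itself (individual lane) and once mixed with the others of its region (pooled lane), and the counts of these runs were added, so that n = 3 libraries per region. Because the libraries of a region share RNA, their spread is technical and does not include variation between animals. The summed libraries held 391410 (index 3), 1461732 (index 7) and 652449 (index 11) counts in FCx, and 3206221, 4956117 and 4053518 in HP. In such bulk tissue, fewer cells of a type and less RNA per cell cannot be told apart.

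MiRNAs pair through their seed, a short stretch near the 5′ end, with messenger RNAs, which are then translated less or degraded. MiR-124 is made by neurons and is among the most abundant miRNAs of the adult brain. It represses transcripts of non-neuronal cells, among them that of the splicing regulator Ptbp1, and thereby favours neuronal differentiation. MiR-9 is present in neural progenitors and in neurons, and its known targets include the transcription factors Nr2e1, Hes1 and REST. Both arms of the miR-9 precursor give a mature miRNA, and the star arm, miR-9*, targets the REST partner CoREST. Added together to fibroblasts, miR-9, miR-9* and miR-124 promote their conversion to neurons.

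The mature sequences of both miR-9 arms are given because the reads described further on differ between indexes in where they begin and end on them. Bases 2 to 8, the seed, are in capitals. The sequences are those of RefSeq.
miR-9: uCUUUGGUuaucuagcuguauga
miR-9*: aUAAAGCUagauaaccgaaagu
In mouse, 3 genes carry these arms, and their hairpins are shown with both arms in capitals to make visible that only the flanks and loops differ.
Mir9-1: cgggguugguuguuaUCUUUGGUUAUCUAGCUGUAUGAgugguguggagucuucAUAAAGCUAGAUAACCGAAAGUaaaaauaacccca
Mir9-2: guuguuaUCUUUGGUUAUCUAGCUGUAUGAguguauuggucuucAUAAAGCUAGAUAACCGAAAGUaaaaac
Mir9-3: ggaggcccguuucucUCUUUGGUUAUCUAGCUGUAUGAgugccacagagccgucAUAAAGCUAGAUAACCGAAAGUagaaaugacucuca
In NCBIM37, the build of the alignments, the RefSeq hairpins matched without a difference on the + strand. Mir9-1 lies at chr3:88019520-88019608 in an intron of the long non-coding RNA Gm3764. Mir9-2 lies at chr13:83878419-83878490 and overlaps an exon of the long non-coding RNA C130071C03Rik. Mir9-3 lies at chr7:86650150-86650239 in an intron of the long non-coding RNA AI854517. Among the 1679 mature mouse miRNA names of the RefSeq table, 1 has the seed of miR-9 (miR-9 itself), and 0 others match miR-9 with up to 2 mismatches when compared from the same first base. For miR-124, the annotation names Mir124a-1 at chr14:65209494-65209578, which overlaps an exon of the long non-coding RNA A930011O12Rik, and Mir124a-3 at chr2:180628736-180628822, outside any other annotated gene. Both are on the + strand.

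Both miRNAs were abundant in each library, but the level of miR-124 ranged far more widely than that of miR-9. In FCx, miR-124 was found at 27912 CPM (counts per 1000000 miRNA counts) with index 3, 57775 with index 7 and 4091 with index 11. In HP it was found at 15169.9, 39174 and 2504 CPM. It was thus highest with index 7 and lowest with index 11 in both regions, and the FCx and HP libraries overlapped. The mean was 29926 ± 26899 CPM in FCx and 18949 ± 18625 in HP (SD, n = 3 libraries), and without index 7 it was 16001 and 8837 CPM. As a share of all counts, it ran from 5.78% (95% Wilson interval 5.74 to 5.82) in FCx with index 7 to 0.25% (0.246 to 0.255) in HP with index 11. These intervals cover counting error only, and the reads carry no molecular identifiers. Ordered from the most abundant miRNA, miR-124 took rank 9 with index 3, 6 with index 7 and 19 with index 11 in FCx, and rank 14, 8 and 21 in HP.

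MiR-9 was found at 17202, 36936 and 28695 CPM in FCx with indexes 3, 7 and 11. In HP it was found at 23927, 57807 and 35218 CPM. By these counts, its lowest library in both regions was index 3 and its highest index 7, and here too the regions overlapped. From genome alignments spanning at least 20 bases, index 7 was instead the lowest relative to the library totals, as described further on. The mean was 27611 ± 9911 CPM in FCx and 38984 ± 17251 in HP (SD, n = 3 libraries). Its ranks stayed closer together than those of miR-124, at 12, 7 and 7 in FCx and 10, 7 and 7 in HP.

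**Figure D1:**
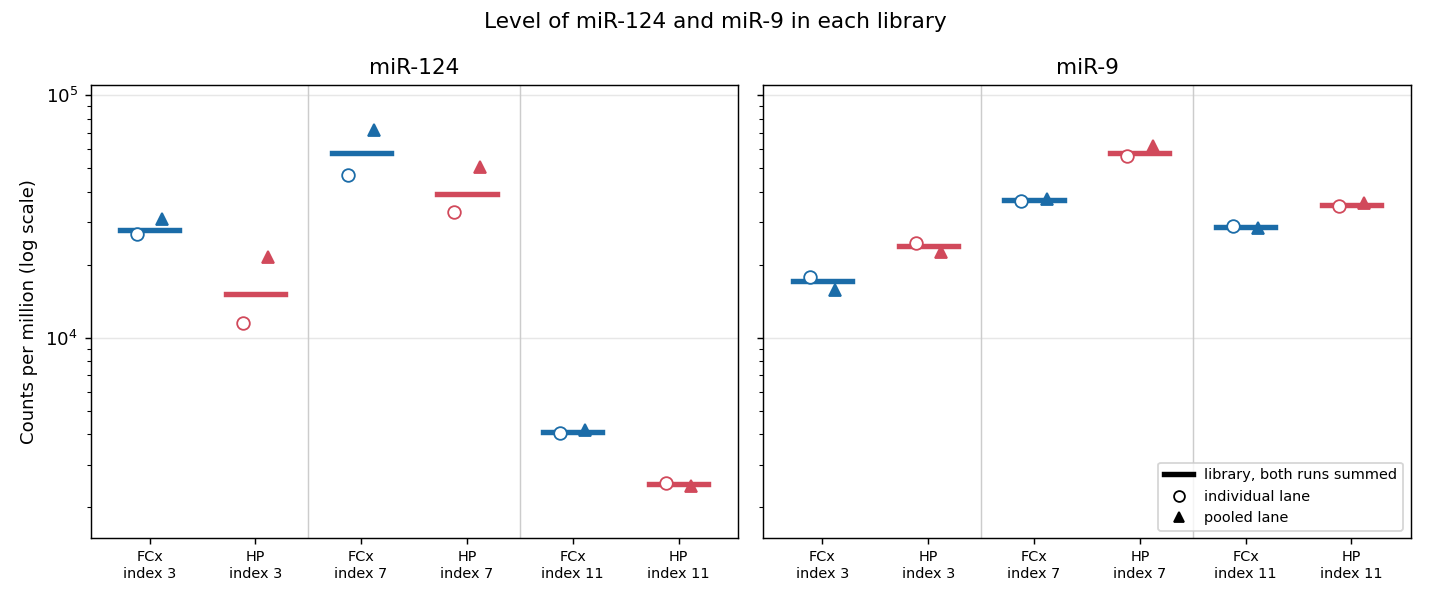
Level of miR-124 (left) and miR-9 (right) in CPM on a log axis, for FCx (blue) and HP (red) with each index. Bars are the libraries with both runs summed, open circles the individual lane and triangles the pooled lane; miR-124 spans 2504 to 57775 CPM over the libraries and miR-9 spans 17202 to 57807.

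By mean CPM, miR-124 was at place 7 in FCx and 10 in HP, and miR-9 at place 9 in FCx and 7 in HP. Without index 7, the places were 12 and 16 for miR-124 and 8 and 7 for miR-9. Their neighbours in that order were members of the let-7 family, which are also abundant in adult brain. In FCx, let-7f (37735 ± 2468 CPM) stood directly above miR-124, let-7e (28605 ± 11155) between it and miR-9, and let-7d (23385 ± 8392) below miR-9. Within a library the order varied: miR-124 exceeded let-7f in 1 of 3 FCx libraries and let-7e in 1 of 3, and miR-9 exceeded let-7e in 2 of 3 and let-7d in 2 of 3. In HP, let-7e (31159 ± 13591 CPM) stood below miR-9, let-7d (20482 ± 8484) above miR-124 and let-7g (17772 ± 9110) below it. There, miR-9 exceeded let-7e in 2 of 3 libraries, and miR-124 exceeded let-7d and let-7g in 1 of 3 each. Only let-7f in HP, at 69756 ± 10737 CPM, kept 1 order, above miR-9 in each of the 3 libraries. These orders were not tested, and the 3 libraries of a region share 1 RNA pool.

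The index was compared next, since each index occurs once in each region. For miR-124, the library with index 7 was 14.1-fold above that with index 11 in FCx and 15.6-fold in HP. The library with index 3 was 6.82-fold and 6.06-fold above index 11. For miR-9, the library with index 7 was 2.15-fold above that with index 3 in FCx and 2.42-fold in HP, and the library with index 11 was 1.67-fold and 1.47-fold above index 3. By counts, the order of the indexes was therefore 7, 3, 11 for miR-124 and 7, 11, 3 for miR-9 in both regions. For miR-9, the place of index 7 depended on short reads, which are described further on. From genome alignments spanning at least 20 bases it was lowest relative to the library totals, not highest. Over the 139 miRNAs that averaged 100 CPM or more, the median ratio of the highest to the lowest index was 4.32 in FCx and 3.85 in HP. The ratio of miR-124 was reached by 21 of the 139 in FCx and 18 in HP (itself included), whereas that of miR-9 was reached by 110 and 101. MiR-124 thus belonged to the miRNAs whose level moved most with the index and miR-9 to those with a range below the median. In a fit of region and index over 431 miRNAs, both members changed with the index. The edgeR quasi-likelihood test gave a log2 fold change of miR-124 of 1.57 for index 7 and -2.17 for index 11 over index 3 (adjusted p = 2.54e-16). For miR-9 it gave 1.54 and 1.14 (adjusted p = 0.00125). In the same test 264 miRNAs, 61.3% of those tested, passed an adjusted p of 0.05. Without the FCx library of index 3, miR-9 no longer passed (adjusted p = 0.321), at a log2 fold change of index 7 over index 3 of 1.42. Whether the index sequence, or another feature of the library that carries it, sets these levels cannot be told apart.

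Both runs of a library gave closer values for miR-9 than for miR-124 in 5 of the 6 libraries, all but HP with index 11. MiR-9 in the pooled lane was 0.88 to 1.10 times its level in the individual lane. MiR-124 in the pooled lane was 1.15-fold (FCx) and 1.87-fold (HP) its level in the individual lane with index 3, 1.52-fold and 1.54-fold with index 7, and 1.03-fold and 0.977-fold with index 11. The pooled lane was therefore above the individual lane for miR-124 with indexes 3 and 7 in both regions, and in 3 of these 4 libraries the fold between runs exceeded the fold between regions with the same index. The HP library with index 3 also differed most between its runs over all miRNAs averaging 100 CPM or more, with a median log2 ratio of pooled to individual lane of 0.46, against values from -0.03 to 0.11 in the other 5 libraries. What sets the runs apart was not tested.

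FCx was then compared with HP within each index. MiR-124 was higher in FCx with each index, 1.84-fold with index 3, 1.47-fold with index 7 and 1.63-fold with index 11 in CPM. MiR-9 was higher in HP with each index, 1.39-fold, 1.57-fold and 1.23-fold. These directions also held in each run taken alone, with log2 FCx over HP from 0.50 to 1.21 for miR-124 and from -0.71 to -0.28 for miR-9. Of the 431 miRNAs tested, 19.7% were higher in FCx and 18.6% higher in HP with all 3 indexes, and of the 139 with at least 100 CPM on average 27.3% and 21.6%. With 3 pairs, the exact sign-flip permutation test (two-sided) can give no p under 0.25, and gave 0.25 for both miRNAs.

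In the fit without the index, the differences were within the spread of the libraries. On the log2 scale, FCx over HP came to 0.55 (SE 1.03) for miR-124 and -0.78 (SE 0.67) for miR-9, both with an adjusted p of 0.992 by edgeR. This test called 2 miRNAs (0.464%), neither of them a member. Leaving out the FCx library of index 7 turned the value of miR-124 to -0.43. Because the FCx and HP libraries of 1 index deviated together, the index was also fitted as a block. The blocked edgeR test with TMM normalization called 77 miRNAs (17.9%, of which 12.8% higher in HP and 5.1% higher in FCx), among them miR-9, lower in FCx by a log2 fold change of -0.89 (SE 0.32, adjusted p = 0.0348), but not miR-124 (0.30, SE 0.32, adjusted p = 0.610). With library totals in place of TMM it called 56 miRNAs (13%, of which 8.35% higher in FCx and 4.64% higher in HP), among them miR-124, higher in FCx by a log2 fold change of 0.72 (SE 0.19, adjusted p = 0.00304), but not miR-9 (-0.47, SE 0.18, adjusted p = 0.0736). Which member passed depended on the scaling. TMM places the median log2 fold change of all tested miRNAs at -0.38 in the blocked fit, and library totals place it at -0.01. Relative to that median, miR-124 was at 0.68 with TMM and 0.72 with library totals, and miR-9 at -0.51 and -0.47. Relative to all miRNAs, the members were thus opposite in sign. The scaling moves the members and the median by similar amounts, which the subtraction removes. That these sizes were close under both scalings is therefore no separate evidence for a difference. Over the 8 blocked fits the adjusted p ran from 0.00304 to 0.838 for miR-124 and from 0.0126 to 0.594 for miR-9.

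The ratio of miR-124 to miR-9 needs no scaling, since both are counted in the same library. In FCx it was 1.62 with index 3, 1.56 with index 7 and 0.143 with index 11. In HP it was 0.634, 0.678 and 0.0711. By these counts, miR-124 was the more abundant of the pair in FCx and the less abundant in HP with indexes 3 and 7, and with index 11 miR-9 exceeded it 7.01-fold in FCx and 14.1-fold in HP. Within each index the ratio was higher in FCx, 2.56-fold, 2.31-fold and 2.01-fold. On the log2 scale this difference was 1.19 ± 0.18 (SD, n = 3 indexes), while the ratios themselves spread by an SD of 2.01 in FCx and 1.85 in HP. Over the libraries without regard to the index, the difference did not pass an exact permutation test (p = 0.5, two-sided, smallest possible 0.1, n = 3 against 3). Within the indexes the exact sign-flip permutation test gave 0.25, the smallest p possible.

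**Figure D2:**
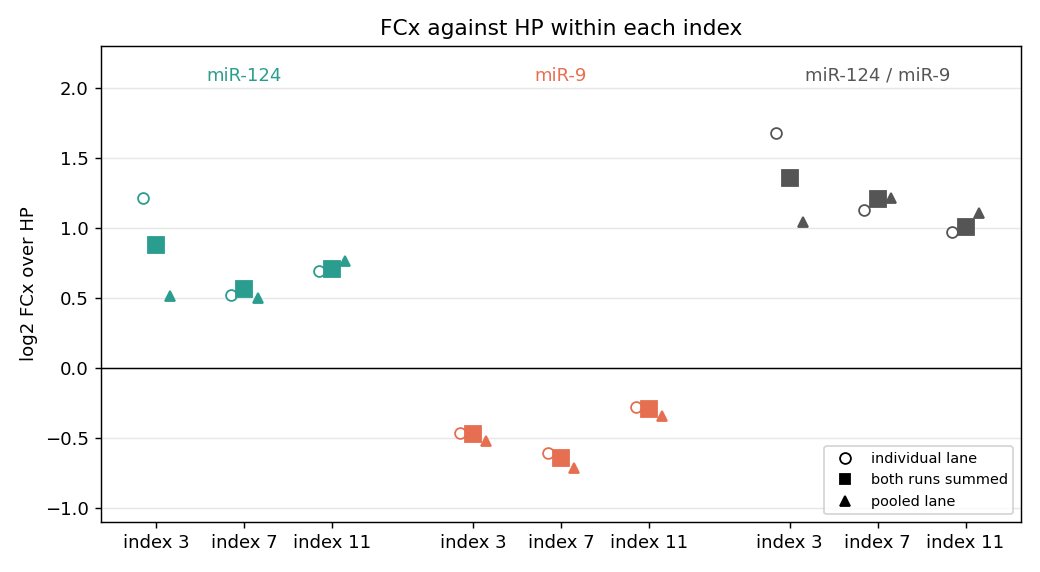
The log2 ratio of FCx to HP within each index for miR-124, miR-9 and the ratio of miR-124 to miR-9, from the individual lane (circles), the pooled lane (triangles) and both runs summed (squares). All values of miR-124 and of the ratio lie above 0 and all values of miR-9 lie below it.

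The genome alignments at the hairpins show where reads begin and end. They come from a separate alignment, so they are not the counted reads themselves. Each read has 1 alignment in the deposited files, and its span is the end minus the start as deposited. The Mir9-1, Mir9-2 and Mir9-3 genes, whose arms are identical, received 197490, 197510 and 197404 alignments at the miR-9 arm over all lanes. In a library they summed to between 97.8% and 103% of the miR-9 count, so with index 7 more reads were aligned there than were counted. Mir124a-1 and Mir124a-3 received 64658 and 64907 alignments, and together these came to 32.2% to 38.5% of the miR-124 count of a library. Another miRNA gene, annotated only under the clone name AC124807.1 at chr3:17695662-17695770, received 64894 alignments. With it, the alignments came to 48.0% to 57.8% of the miR-124 count of a library (55.4% over all libraries). Alignments at this gene were similar in span and start to those at the named miR-124 genes. In HP with index 7, 86.3% spanned at least 20 bases and 79.8% began at the commonest start, beside 86.4% and 79.9%. They were least alike in FCx with index 11, at 70.9% and 82.5% beside 67.4% and 86.9%. The annotation does not name the miRNA of this gene, so its alignments are not included in the shares of miR-124 given here.

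For miR-9, the span depended on the index. Spans of at least 20 bases made up 98.8% (FCx) and 96.3% (HP) of its alignments with index 3 and 96.1% and 95.4% with index 11, but 22.5% and 19.9% with index 7. With index 7, 68.3% (FCx) and 71.4% (HP) of the alignments spanned 17 bases and another 8.35% and 8.12% spanned 16. The share of 17 bases lay between 67.1% and 72.6% in the 4 lane files of index 7 and did not exceed 3.44% in any lane file of the other indexes. Among all other genome alignments of a lane file, without those at the miR-9 loci, the share of this span was 3.92% to 4.31% with index 7, 5.04% to 5.80% with index 3 and 2.296% to 3.12% with index 11. The short miR-9 alignments began at the first base of the mature sequence in 98.7% (FCx) and 98.6% (HP) of cases with index 7, and a span of 17 bases from there covers the part in capitals.
miR-9, first 17 bases: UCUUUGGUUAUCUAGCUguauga
This part includes the whole seed. MiR-124 did not show such a class with index 7. Its spans of at least 20 bases made up 86.4% (FCx) and 87.6% (HP) with index 3, 82.2% and 86.4% with index 7, and 67.4% and 71.6% with index 11. Spans of at least 20 bases at miR-9 came to 2192, 4159 and 5948 alignments per locus in FCx with indexes 3, 7 and 11. In HP they came to 24089, 19546 and 44969. Relative to the total counts of the libraries, index 7 was then the lowest for miR-9 in both regions, whereas it was the highest by counts. How the short alignments arose was not tested.

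The first base of the reads also differed between indexes, most for miR-9 with index 3. Its alignments began at the first base of the mature sequence in 84.3% (FCx) and 84.0% (HP) with index 3, 98.1% and 98.0% with index 7, and 95.8% and 95.04% with index 11. They began 1 base later in 12.9% and 12.8% with index 3, 1.69% and 1.79% with index 7, and 3.79% and 4.39% with index 11. Taking spans of at least 20 bases alone, these shares were 13.1% and 13.1%, 3.28% and 3.64%, and 3.86% and 4.48%. The regions thus differed by under 1 percentage point within an index, and index 3 stood apart from the others. A read that begins 1 base later has its seed moved by a base, as the capitals show, and 0 of the 1679 RefSeq mature miRNA names have that seed.
miR-9 from 1 base later: cUUUGGUUaucuagcuguauga
For miR-124, most alignments began at 1 position of the hairpin, 76.5% (FCx) and 74.3% (HP) with index 3, 83.0% and 79.9% with index 7, and 86.9% and 80.8% with index 11. Starts 1 base earlier came next, at 18.8% and 21.7%, 13.4% and 17.4%, and 10.1% and 16.9%. Starts 1 base later lay between 1.56% and 3.08%. At the named miR-124 genes, an earlier start was thus commoner in HP than in FCx with each of the 3 indexes. The FCx value with index 11 rests on 863 alignments. At AC124807.1 the shares were 20.7% (FCx) and 21.3% (HP) with index 3, 13.8% and 17.5% with index 7, and 14.9% and 17.7% with index 11. There, the pooled lane of index 3 went the other way, at 22.7% and 21.4%. The difference was not tested. For miR-9, an earlier start stayed under 1% in each library.

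**Figure D3:**
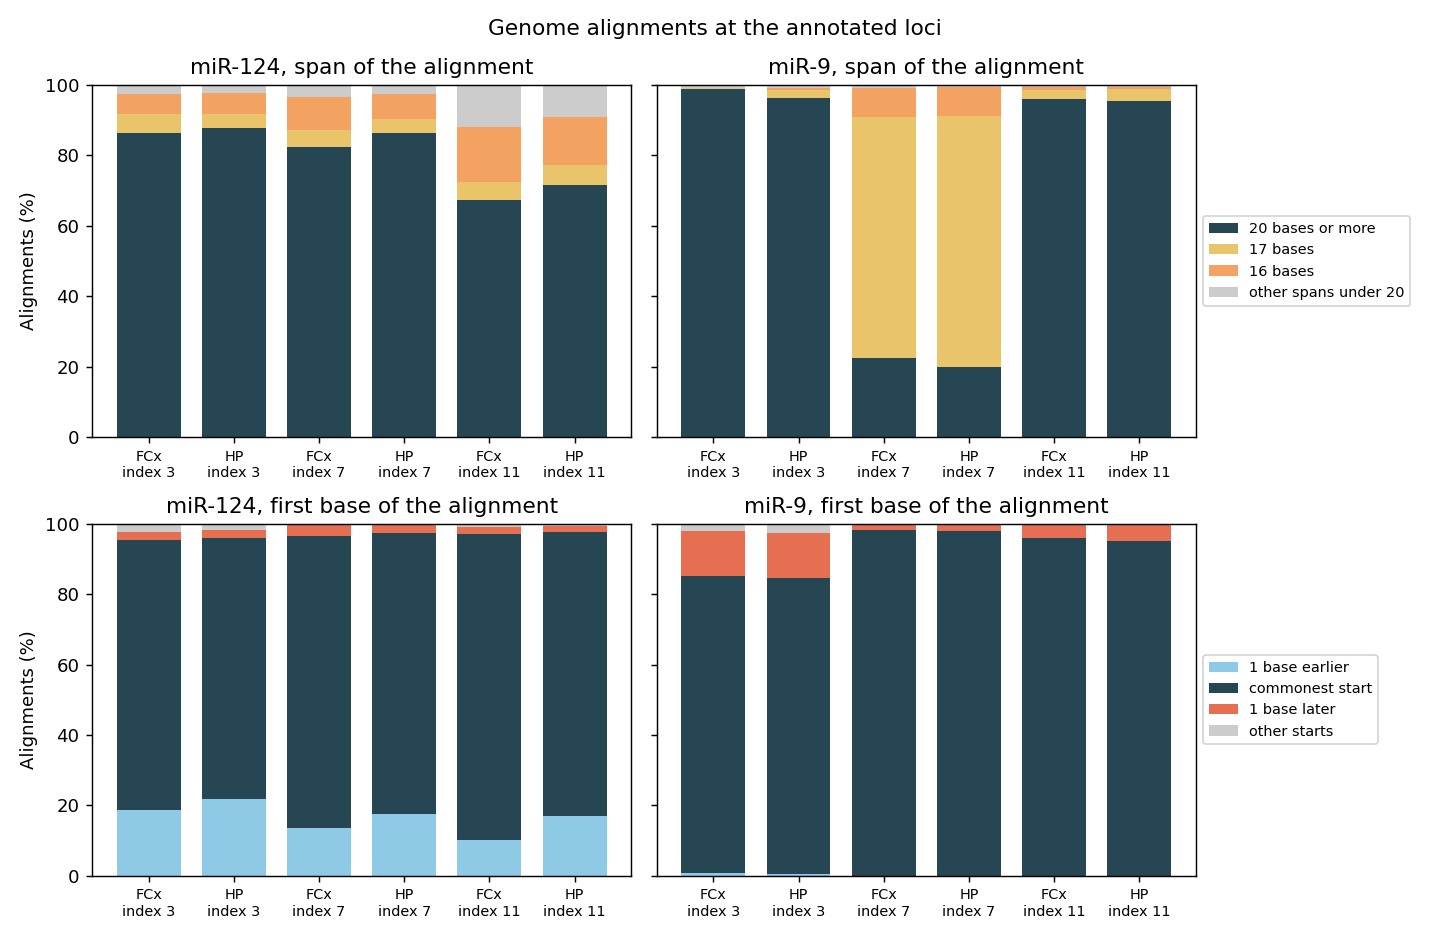
Share of the genome alignments at the annotated miR-124 (left) and miR-9 (right) loci by span (top) and by first base relative to the commonest start (bottom), in percent, for each library with both runs summed. Index 7 stands apart for miR-9 by spans of 17 bases (68.3% and 71.4%), and index 3 by starts 1 base later (12.9% and 12.8%).

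The FCx against HP difference of the ratio was recalculated from these alignments as the mean per named locus. From all spans, the log2 difference was 1.19, 1.07 and 1.01 for indexes 3, 7 and 11. From spans of at least 20 bases it was 1.13, 0.81 and 0.91. The ratio was therefore higher in FCx with each index also without the short alignments. The level of the ratio depended on the reads taken. Per locus, the alignments came to 16.1% to 19.2% of the miR-124 count but 32.6% to 34.4% of the miR-9 count, which lowers the ratio from alignments against that from counts. In FCx the log2 ratio with indexes 3 and 7 was 0.70 and 0.65 from the counts, -0.30 and -0.33 from all alignments per locus, and -0.50 and 1.54 from the long ones. In HP with the same indexes it was -0.66 and -0.56 from the counts, -1.49 and -1.40 from all alignments, and -1.63 and 0.72 from the long ones. The levels from counts and from alignments can therefore not be set against each other. Among the alignments, the long ones alone gave a higher ratio than all of them with index 7 and a lower one with index 3, in both regions.

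The star arms were counted far less often and did not follow the main arms equally. MiR-9* was found at 2287, 166 and 1461 CPM in FCx with indexes 3, 7 and 11. In HP it was found at 2068, 177 and 521 CPM. It was thus highest with index 3 and lowest with index 7 in both regions, the reverse of the miR-9 counts for these indexes. From alignments spanning at least 20 bases, miR-9 too was higher with index 3 than with index 7, relative to the library totals. The shares that follow are from counts, which were not separated by length. Its share of the counts of both arms was 11.7% with index 3 (95% Wilson interval 11.0 to 12.5), 0.448% with index 7 (0.395 to 0.508) and 4.84% with index 11 (4.55 to 5.15) in FCx. In HP the share was 7.96%, 0.305% and 1.46%. MiR-124* had 25, 235 and 16 counts in FCx and 135, 693 and 81 in HP, or 63.9, 161 and 24.5 CPM and 42.1, 139.8 and 19.98 CPM. The star arm of miR-124 followed the index order of its main arm, and its share of both arms lay between 0.228% and 0.792%. Both star arms changed with the index by edgeR (adjusted p = 8.32e-16 for miR-9* and 3.18e-12 for miR-124*). Neither was called between FCx and HP, without the block (log2 fold change -0.08 and 0.19, adjusted p = 0.995 and 0.992) or with it (0.09 and 0.01 with TMM, adjusted p = 0.883 and 0.993).

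The miRNAs whose log2(CPM + 1) followed each member most closely over the 6 libraries are given as a description, since the libraries share indexes and RNA pools. For miR-124 they were miR-744 (Pearson's r of 0.996), miR-129-5p (0.974) and miR-337-5p (0.960), out of 138 that averaged 100 CPM or more. MiR-744 stood at 1627, 2332 and 257 CPM in FCx and 833, 2115 and 157 in HP with indexes 3, 7 and 11, the same order of indexes as miR-124. For miR-9 they were miR-541 (0.965), miR-138 (0.859) and miR-27a (0.785). MiR-541 stood at 483, 1318 and 1042 CPM in FCx and 696, 2150 and 896 in HP. The members themselves were little alike over the libraries (r of 0.129).

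The tissue label was checked against other miRNAs enriched in brain and against those of muscle and liver. The 10 listed summed to 247413, 181458 and 235652 CPM in FCx and 120537, 76396 and 124476 in HP with indexes 3, 7 and 11, mainly miR-128. The least abundant of them were miR-134 (0 to 52.1 CPM) and miR-153 (3.74 to 15.3 CPM). The 4 miRNAs listed for muscle and liver summed to 135, 1086 and 106 CPM in FCx and 127, 840 and 71.5 in HP, mostly miR-1. The hepatic miR-122 stayed at 24.0 CPM or lower. Between FCx and HP, the unblocked edgeR test called 0 of the 10. With the index block 4 of the 10 passed with TMM and 5 of the 10 with library totals, against the 17.9% and 13% of all miRNAs. The median log2 fold change of the 10 was -0.13 with TMM and 0.16 with library totals, beside -0.38 and -0.01 over all miRNAs.

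Those higher in FCx in both blocked fits were miR-132 and miR-212, which are cut from a shared transcript induced by neuronal activity. MiR-132 was at 16806, 731 and 22160 CPM in FCx (indexes 3, 7 and 11) and at 3712, 252 and 6502 in HP, and rose in FCx by a log2 fold change of 1.41 with TMM (SE 0.31, adjusted p = 0.000102). MiR-212 rose by 1.06 (SE 0.28, adjusted p = 0.00233). MiR-128, which dampens neuronal excitability, was at 196009, 177013 and 208464 CPM in FCx and 63974, 70734 and 110495 in HP. It was thus higher in FCx with all 3 indexes, as were 27.3% of the 139 miRNAs averaging at least 100 CPM. It was called with library totals (log2 fold change 1.29, SE 0.15, adjusted p = 3.80e-15) and not with TMM (0.86, SE 0.35, adjusted p = 0.0631). Like miR-124 it was therefore called under 1 scaling only. As in every fit here, SE and p reflect the spread of libraries from 1 RNA pool per region, not variation between animals.

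Those higher in HP in both blocked fits were miR-137 and miR-218. MiR-218 was at 388, 252 and 2606 CPM in FCx and 994, 714 and 5721 in HP (log2 fold change -1.75 with TMM, SE 0.30, adjusted p = 2.33e-07). MiR-137, which acts in neuronal maturation, was at 31458, 26.7 and 61.3 CPM in FCx and 50059.6, 39.3 and 137.4 in HP (-1.24, SE 0.33, adjusted p = 0.00263). Its level with index 3 exceeded the other indexes far more than the regions differed. MiR-138 and miR-129-5p, which also averaged over 1000 CPM, were called in neither blocked fit (TMM log2 fold change -0.74 and -0.05, adjusted p = 0.0569 and 0.939).

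**Figure D4:**
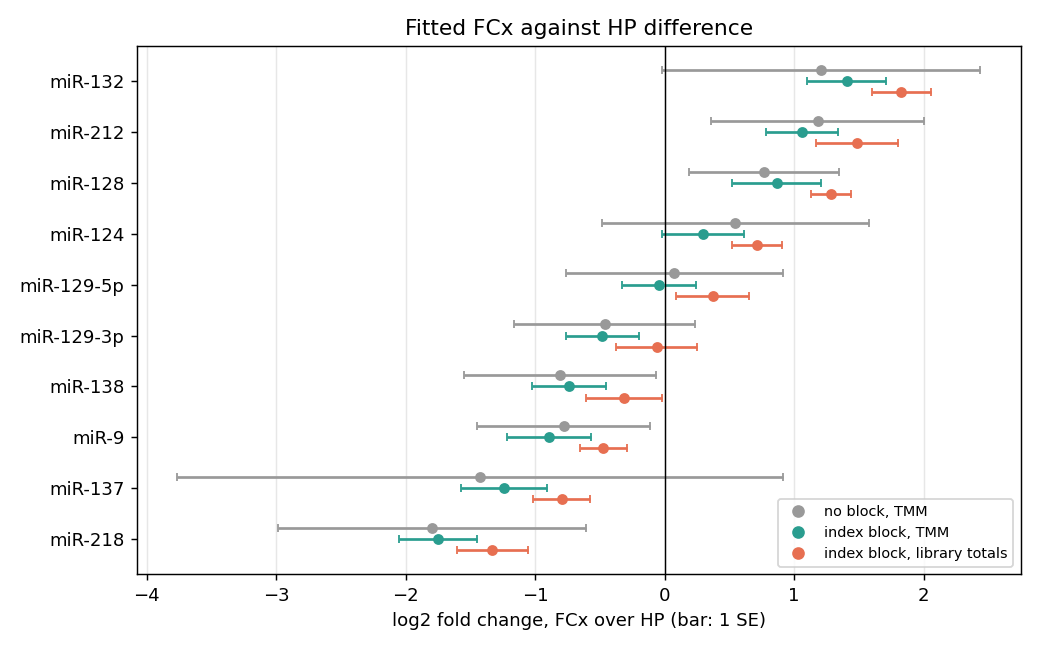
Log2 fold change of FCx over HP with 1 SE for miR-124, miR-9 and the other brain-enriched miRNAs averaging 100 CPM or more, in the fit without a block (grey), with the index block and TMM (green) and with the index block and library totals (orange). The bars are wider without the block, and library totals move each value of the blocked fit upward, miR-124 from 0.30 to 0.72 and miR-9 from -0.89 to -0.47.

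Among markers of other brain cells, the 3 miRNAs listed for oligodendrocytes (miR-219, miR-338-3p and miR-338-5p) summed to 1625, 1152 and 556 CPM in FCx and to 1913, 2463 and 421 in HP with indexes 3, 7 and 11. They were thus higher in HP with indexes 3 and 7 and lower with index 11. MiR-219, the most abundant of them, was called higher in HP with the index block and TMM (log2 fold change -1.09, SE 0.30, adjusted p = 0.00287) and not with library totals (-0.65, SE 0.31, adjusted p = 0.185). In the same TMM fit, which called 17.9% of all miRNAs, the other 2 did not pass (miR-338-3p -0.49, adjusted p = 0.288, and miR-338-5p -0.27, adjusted p = 0.672). The part of glial content in the differences of miR-124 and miR-9 was not tested.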

How the data were processed

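Small RNA (15-35 nt) libraries from 1 RNA pool per region were sequenced by the authors on a Genome Analyzer II. They sorted and trimmed the reads, removed mitochondrial, ribosomal, homopolymer and short reads, and aligned the rest with Bowtie, allowing 2 mismatches, to miRBase 11 and NCBIM37. The counts are, as deposited, whole numbers of reads per mature miRNA in each of 12 lane files, without normalization. The alignment files hold positions in NCBIM37 as deposited.

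Both runs of a library were summed. CPM are relative to the total miRNA count. FCx and HP were compared with edgeR 4.0.16 (R 4.3.3; quasi-likelihood test, TMM, Benjamini-Hochberg adjustment) over the 431 miRNAs that had 2 or more counts in a region. Every adjusted p is from this test unless DESeq2 (1.42.0) is named. The labels give the same replicate numbers to libraries of both regions. Replicates 1, 2 and 3 are named here as indexes 3, 7 and 11, the order in which the paper lists the libraries. Deviations from the region mean correlated with r of 0.748, 0.841 and 0.829 for libraries of 1 index and from -0.58 to -0.24 for others, so the index paired them and was also fitted as a block. Exact permutation tests, Wilson 95% intervals and plots used Python 3.11.15, scipy 1.17.1 and matplotlib 3.10.9. The edgeR fits were also run on simulated counts. There the blocked test of region had no index effect to deal with, so the simulation does not vouch for the blocked calls.

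Named besides the members are their star forms, the 3 miRNAs with the highest correlation among those averaging 100 CPM or more, the neighbours in rank, and brain-enriched miRNAs that averaged 1000 CPM or more or passed a test. MiR-219 and miR-1, and miRNAs of other lists, were named for their list after their values were seen. The members and lists were chosen with earlier results of these data known. Alternatives covered normalization, test, filter, lanes, block and libraries left out. Blocked fits with DESeq2, with fewer lanes or without 1 index, and ratios from alignments, were added after seeing the data.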

Additional observations from a re-analysis of the deposited data

How the results depend on the processing

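MiR-124 kept its direction between FCx and HP in 23 of 24 alternatives and miR-9 in all 24. Leaving out libraries without a block gave log2 fold changes of miR-124 from -0.43 (without the FCx library of index 7) to 1.69, and of miR-9 from -0.93 to -0.35. With the replicate block and library totals miR-124 was at 0.72 (adjusted p = 0.00304), against 0.66 with library totals alone. In the other blocked fits it did not pass, at 0.30 with TMM, 0.49 with individual and 0.15 with pooled lanes only, and 0.40, 0.40 and 0.73 without index 3, 7 and 11 (adjusted p from 0.0776 to 0.838, DESeq2 included). The replicate block moved miR-9 to -0.89 (0.0348) with TMM, -0.77 (0.0138) with individual lanes only and -0.78 (0.0126) without index 7. MiR-9 did not pass with the block and pooled lanes only (-0.97, adjusted p = 0.084), without index 3 (-0.71, 0.594) or without index 11 (-0.56, 0.502), and DESeq2's blocked Wald test gave adjusted p values of 0.0776 for miR-124 and 0.0547 for miR-9. The cause was not tested.

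The number of miRNAs called between FCx and HP was 2 without a block and 17 at an unadjusted p under 0.05. It was 12 by DESeq2's Wald test, 14 by the exact test of edgeR over the 12 lane files, 8 without the filter, 0 with pooled lanes only, and 0 to 7 with libraries left out. With the replicate block it was 77 with TMM, 56 with library totals, 41 by DESeq2, 68 with individual and 46 with pooled lanes only, and 30 to 51 without 1 index. The index effect held in all 11 alternatives for miR-124 and in 10 of 11 for miR-9. Without the FCx library of index 3 the adjusted p of miR-9 was 0.321, with log2 fold changes of index 7 over index 3 from 1.16 to 1.95 over the libraries left out. The difference in the log2 ratio stayed positive in all 11 alternatives, from 0.12 without the HP library of index 11 to 2.35 without the FCx library of index 11. Leaving out 1 library unbalances the indexes between the regions. Among the 11, the mean difference within the indexes equals the main value of 1.19 by calculation. The smallest count of a member in a library was 2669.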

Other observations

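The 8 miRNAs listed for blood and microglia, led by the erythroid miR-451, summed to 102, 184 and 115 CPM in FCx with indexes 3, 7 and 11 and to 111, 182 and 71.8 in HP. The myeloid miR-223 stayed at 3.23 CPM or lower in each library. Of the arms of the miR-142 hairpin, miR-142-3p stayed at 1.53 CPM or lower and miR-142-5p was at 4.79 to 19.03 CPM. The lymphoid miR-150 reached 35.3 CPM. With the index block, 0 of the 8 passed the edgeR test with TMM and 1 with library totals, miR-486, higher in FCx by a log2 fold change of 1.03 (adjusted p = 0.0235), against 17.9% and 13% of all miRNAs. The 4 vascular miRNAs, led by miR-143 of smooth muscle, summed to 439, 274 and 691 CPM in FCx and 477, 272 and 839 in HP. Of these, 1 of 4, the endothelial miR-126-5p, was called higher in HP with the block and TMM (log2 fold change -0.97, adjusted p = 0.00764) and not with library totals (-0.58, adjusted p = 0.261). In the unblocked test, which called 0.464% of all miRNAs, 0 of the miRNAs of these lists, and 0 of the 3 for oligodendrocytes and the 4 for muscle and liver, passed. The latter 4 did not pass with the block either.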
